A study of Rattus norvegicus and Bos taurus with 6 samples.

Results

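The blood vascular endothelium of 2 rat brown fat depots was described from single-nucleus RNA counts. A nucleus was counted as endothelial when it held at least 3 unique molecular identifiers (UMIs, each a counted RNA molecule) of 8 endothelial genes, more than 2 times as many of these as of 9 genes of other cell types, and no UMI of Prox1, the master regulator of lymphatic endothelium. The 8 endothelial genes were Ptprb, Pecam1, Cyyr1, Shank3, Mecom, Flt1, Adgrl4 and Emcn. The 9 excluding genes were Pdgfra, Dcn and Fbn1 of stromal cells, Ptprc, Mrc1 and Dock2 of immune cells, and Notch3, Myh11 and Pdgfrb of mural cells, the smooth muscle cells and pericytes of the vessel wall. No adipocyte gene took part in the choice. These criteria were met by 1464 of 5407 nuclei, which were 649 of 2708 in the library labelled thoracic aorta perivascular adipose tissue (taPVAT) and 815 of 2699 in the library labelled subscapular brown adipose tissue (BAT). The 4 rat libraries made with the same kit held 11240 nuclei in all.

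The study set out to isolate nuclei from frozen white fat of rats and cows for sequencing, and the brown depots were sequenced alongside. Both brown libraries came from male Dahl SS rats of the strain SS/HsdMcwiCrl bought from Charles River, labelled normal, housed at 22 °C and 50% humidity on a 12:12 light cycle, and killed with pentobarbital. Neither depot carried an added treatment, gene deletion or transgene, and the age of the rats and the number pooled in a library are not given in the sources used here. The tissue was snap frozen, and its nuclei were fixed and barcoded with the Parse Evercode WT v3 kit in the batch labelled 2. There was 1 library per depot, so no test between depots was possible, and every interval given here is a 95% interval that covers counting error only. Each library had been split over 3 barcoding wells, named A4, A5 and A6 for taPVAT and A1, A2 and A3 for BAT, and the wells are taken as technical aliquots, since nothing says that they came from separate rats. The libraries shared 0 nucleus barcodes.

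Brown fat is among the most densely vascularised tissues, and its capillary endothelium delivers oxygen and fatty acids to the mitochondria-rich adipocytes and carries heat away. Vascular endothelial growth factor (VEGF) from adipocytes acts on receptors of the endothelium and maintains this network, while Notch signalling sets arterial against capillary and venous identity. The perivascular fat of the thoracic aorta is a brown depot that encloses a large artery, whereas the fat beneath the scapulae is not organised around one.

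Endothelial nuclei made up 24.0% of taPVAT nuclei (exact binomial interval 22.4 to 25.6) and 30.2% of BAT nuclei (28.5 to 32.0). The 3 taPVAT wells held 20.9%, 26.5% and 23.9%, and the 3 BAT wells held 28.9%, 32.1% and 29.5%. Every BAT well was above every taPVAT well. The share depended on depth: after each nucleus was thinned to 500 UMIs, with 386 and 115 shallower nuclei left out, 15.3% of taPVAT and 20.7% of BAT nuclei qualified, against 25.4% and 30.3% of the same nuclei before thinning. By these criteria 249 of 3028 nuclei (8.22%, 7.27 to 9.26) qualified in the white library labelled mesPVAT and 60 of 2805 (2.14%, 1.64 to 2.74) in the white library labelled RP fat, both with many more shallow nuclei (2052 and 2425 under 500 UMIs). Over the deeper nuclei of those libraries, thinned likewise, the shares were 10.5% and 6.58%, against 15.1% and 10.3% unthinned. The taPVAT nuclei had been spun down more gently than those of the white depots, and the speed for BAT is not given in the sources used here.

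An endothelial nucleus held a median of 1343 UMIs and 934 genes in taPVAT and 1576 UMIs and 1016 genes in BAT, and the remaining nuclei had medians of 1212 and 1767 UMIs. In all, 1473785 UMIs were counted in the taPVAT members and 2198811 in the BAT members. The median count of the 8 endothelial genes was 8 per nucleus in taPVAT and 11 in BAT, with highest values of 99 and 108. Mitochondrial UMIs had medians of 0.328% and 0.297% of a nucleus. Levels are given in CPM, the UMIs of a gene scaled to 1000000 UMIs of the pooled nuclei, without scaling for gene length. A single gene without a symbol held the most UMIs, at 103673 CPM in taPVAT and 101873 CPM in BAT. Among genes with a symbol, those with the most were Ebf1, Utrn, Gnas, Itpr2 and the clone-named AABR07007032.1. They ran from 2550 to 3597 CPM in taPVAT and from 2570 to 3782 CPM in BAT. The choosing genes are given only as a description, since the criteria fix their direction. Mecom, a transcription factor of endothelium, had a UMI in 80.3% and 79.4% of members of taPVAT and BAT, Flt1, a VEGF receptor, in 56.1% and 70.1%, and Pecam1, the adhesion molecule CD31, in 53.5% and 58.8%.

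The edge of the choice was gradual. The nuclei just inside, with exactly 3 UMIs of the endothelial genes, numbered 90 in taPVAT and 73 in BAT, and a separate list of 26 pan-endothelial genes that the criteria did not use summed to 1659 and 1169 CPM in them. The nuclei just outside, with 2 such UMIs and otherwise qualifying, numbered 124 and 110, and the list summed to 702 and 727 CPM. Nuclei with enough endothelial UMIs that were turned away by the 9 excluding genes numbered 183 and 99, and those turned away by Prox1 numbered 23 and 9.

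The label was checked on the pan-endothelial list. The criteria favour nuclei rich in endothelial RNA, so this is a description. It summed to 4512 CPM in the taPVAT members and 5110 CPM in the BAT members, against 980 and 748 CPM in all remaining nuclei, 313 and 226 CPM in adipocyte nuclei that were picked for holding none of the choosing genes, and 881 and 722 CPM in stromal nuclei. Cdh5, the VE-cadherin of endothelial junctions, stood at 212 and 231 CPM in members and at 31.2 and 27.0 CPM in the remaining nuclei. Its wells held 142, 228 and 235 CPM in taPVAT and 192, 234 and 286 CPM in BAT, and none of them came near the level of the remaining nuclei. Of 11 lymphatic genes, 9 in taPVAT and 7 in BAT had a UMI in members, with sums of 368 and 193 CPM. Prox1 was at 0 by construction, and the list was led by Foxp2 in taPVAT (191 CPM) and by Pkhd1l1 in BAT (82.8 CPM).

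**Figure D1:**
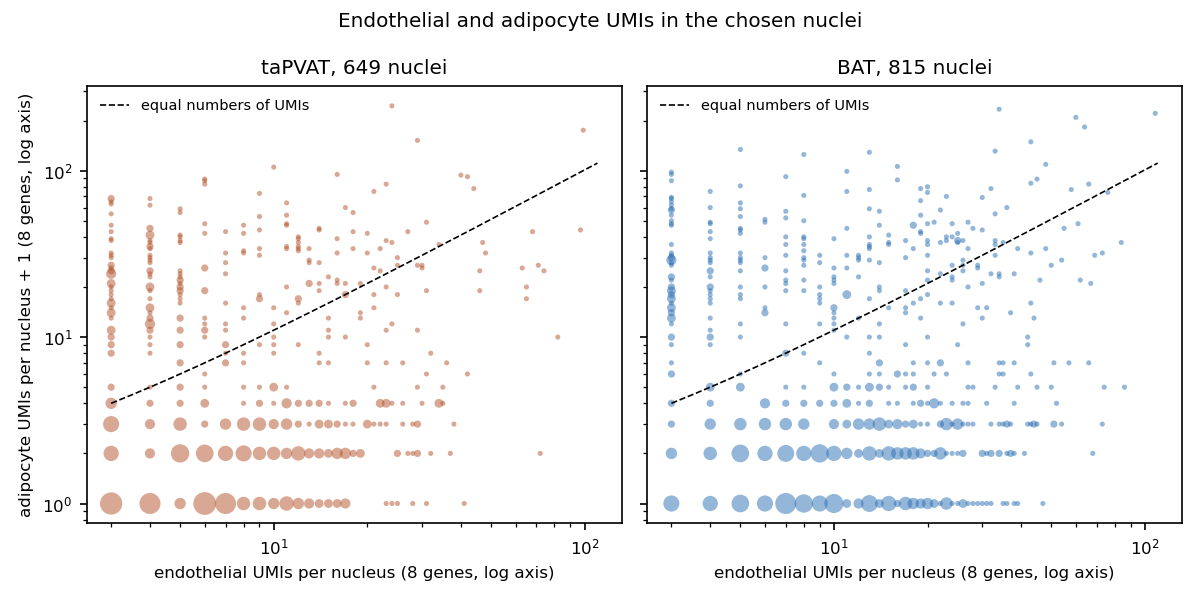
Every endothelial nucleus of taPVAT and BAT by its UMIs of the 8 endothelial genes that chose it and of 8 adipocyte genes that did not. Axes are logarithmic, with 1 added to the adipocyte UMIs only, and point area gives the number of nuclei. A dashed line marks equal numbers of UMIs of both. In each library the nuclei spread on both sides of the line, with 436 of 649 taPVAT and 582 of 815 BAT nuclei on or to the endothelial side of it.

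Adipocyte RNA ran through the chosen nuclei of both libraries. The 20 genes of an adipocyte list, led by Plin1 in taPVAT and Acsl1 in BAT, summed to 14568 CPM in the taPVAT members and 14349 CPM in the BAT members, with a UMI in 92.1% and 93.3% of nuclei and no gene of the list at 0. The same list summed to 24756 and 24776 CPM in adipocyte nuclei, to 8571 and 8715 CPM in stromal nuclei, and to 6815 and 9292 CPM in immune nuclei. Ucp1, the uncoupling protein that marks brown adipocytes, had a UMI in 48.4% and 44.7% of endothelial nuclei (median depths 1343 and 1576 UMIs) and in 15.6% and 27.5% of immune nuclei (888.5 and 1208 UMIs). The shares were 28.7% and 26.7% in stromal nuclei (1305 and 1698 UMIs) and 34.6% and 43.6% in mural nuclei (1172 and 1788 UMIs), so that in BAT the mural share lay next to the endothelial one. How much of this came from free RNA, from 2 nuclei sharing a barcode or from the endothelium itself was not tested, and these cannot be told apart in the counts.

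The members were therefore also described in 2 groups, split by whether the UMIs of 8 adipocyte genes (Plin1, Plin4, Plin5, Lipe, Dgat2, Adrb3, Cidea and Pnpla2) exceeded those of the 8 endothelial genes. Adipocyte-poor nuclei, without such an excess, numbered 436 in taPVAT (67.2% of members) and 582 in BAT (71.4%). They were shallow, with medians of 927.5 and 1134.5 UMIs, and held 41.3% and 44.2% of the members' UMIs. Adipocyte-rich nuclei numbered 213 and 233, with medians of 3272 and 4146 UMIs. The split weighs endothelial against adipocyte UMIs. It therefore favours higher endothelial and lower adipocyte levels in the adipocyte-poor nuclei, and such contrasts, here and below, are a description. The pan-endothelial list summed to 8328 and 8946 CPM in the adipocyte-poor nuclei and to 1824 and 2067 CPM in the adipocyte-rich nuclei. Ucp1 was not among the genes of the split, but as an adipocyte gene it is no separate check of it. It stood at 507 and 531 CPM in the adipocyte-poor nuclei and at 2279 and 2375 CPM in the adipocyte-rich nuclei. The first of these lay below the level in immune nuclei (754 and 927 CPM), which were not chosen for few adipocyte UMIs. The second lay below that of adipocyte nuclei (2646 and 2830 CPM).

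**Figure D2:**
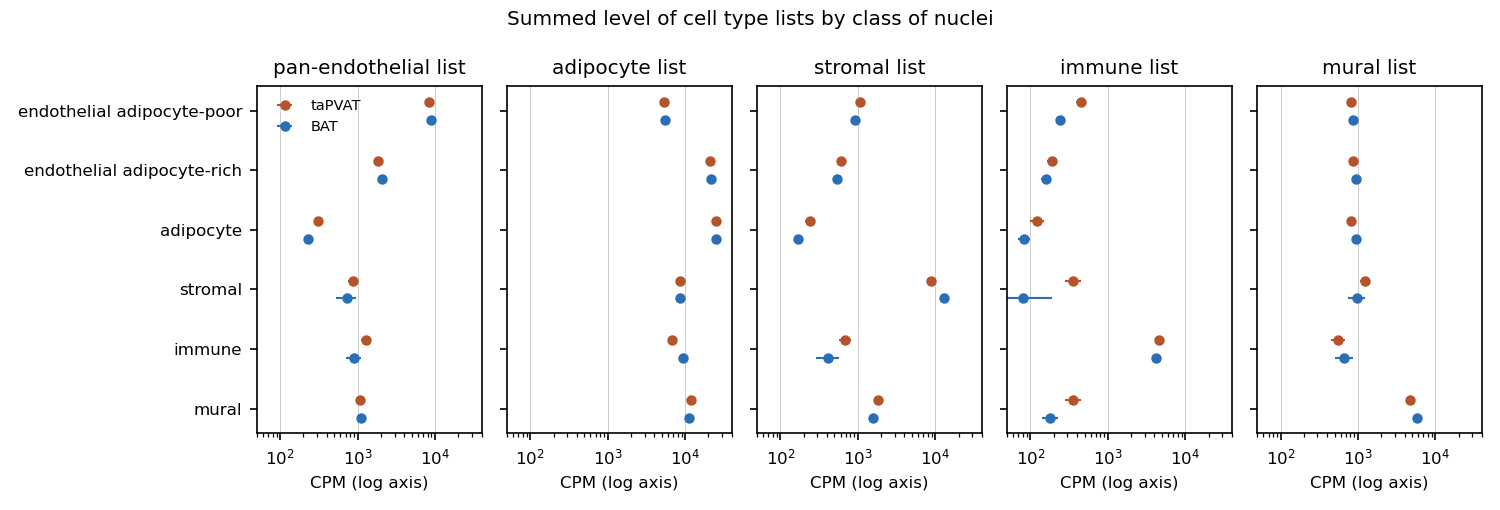
Summed level (CPM, with 95% counting intervals) of 5 gene lists in each class of nuclei of taPVAT and BAT. The pan-endothelial list was highest in the adipocyte-poor endothelial nuclei (8328 and 8946 CPM), and the adipocyte list in adipocyte nuclei and adipocyte-rich endothelial nuclei (21037 and 21392 CPM in the latter). The split by endothelial and adipocyte UMIs favours both, so they are a description.

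The question asked within each library was which genes set the endothelial nuclei apart from the remaining nuclei beyond those that chose them. Of 14684 genes with at least 20 UMIs in taPVAT, 5.69% were at least 2-fold higher in the endothelial nuclei and 8.25% at least 2-fold lower. Of 14831 genes in BAT, 8.48% were higher and 7.44% lower by that measure. With the adipocyte-poor nuclei alone, 12.8% and 16.4% of 13960 genes in taPVAT and 14.7% and 18.1% of 13986 genes in BAT passed these folds. All genes together had a median ratio of 0.940 in taPVAT and 0.937 in BAT. The nuclei were chosen on their endothelial UMIs, so a gene that goes with those UMIs had to be higher, and the ratios are read as a description. The shares over all genes are the background for the list counts that follow. The few lower genes in the endothelial lists are not read as a result about those lists.

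Genes that nearly all endothelium expresses made up the first group. In taPVAT 24 of its 25 measured genes were at least 2-fold higher, with a median ratio of 5.49, and in BAT 24 of 24 were, with a median of 8.07. In the adipocyte-poor nuclei the medians were 10.2 and 13.9, with 25 of 25 and 24 of 24 genes past the fold. The split also used endothelial UMIs, so nothing is read from this rise. Nos3, the endothelial nitric oxide synthase that relaxes the vessel wall, held 148, 193 and 208 CPM in the taPVAT wells and 198, 260 and 291 CPM in the BAT wells. That was 8.45-fold (6.57 to 11.0) and 10.6-fold (8.53 to 13.4) the level of the remaining nuclei. Tie1, an orphan receptor of the angiopoietin pathway, was 7.03-fold (5.47 to 9.12) and 9.70-fold (7.73 to 12.3) higher. Sox17, a transcription factor of arterial endothelium, was 9.26-fold and 7.88-fold higher, and Robo4, a guidance receptor of endothelium, 7.20-fold and 11.3-fold.

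The promoters of 3 named endothelial genes are shown because ETS factors, a family that includes the endothelial regulators Erg and Fli1, recognise sites built on a GGAA core. They were read from RefSeq on the build GRCr8, each from 250 bases before to 50 bases after the start of the gene, 5′ to 3′ on the gene's strand, with matches to CAGGAA or its reverse TTCCTG in capitals. Nos3 lies at chr4:11706532-11706831 on the minus strand, Clec14a, a lectin-like membrane protein of endothelium, at chr6:81619507-81619806 on the minus strand, and Podxl, a sialomucin of the luminal face, at chr4:61149082-61149381 on the minus strand.
Nos3: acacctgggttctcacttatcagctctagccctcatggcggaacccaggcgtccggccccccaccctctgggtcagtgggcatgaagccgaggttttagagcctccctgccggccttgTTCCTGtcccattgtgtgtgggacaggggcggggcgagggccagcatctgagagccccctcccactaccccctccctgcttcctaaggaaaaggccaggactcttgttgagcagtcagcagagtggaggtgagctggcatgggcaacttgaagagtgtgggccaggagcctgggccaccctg
Clec14a: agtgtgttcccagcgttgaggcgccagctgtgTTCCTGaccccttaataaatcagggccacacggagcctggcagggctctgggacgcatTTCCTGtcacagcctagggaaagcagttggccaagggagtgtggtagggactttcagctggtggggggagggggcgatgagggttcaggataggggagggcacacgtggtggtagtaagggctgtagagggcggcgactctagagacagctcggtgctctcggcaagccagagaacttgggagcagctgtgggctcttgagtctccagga
Podxl: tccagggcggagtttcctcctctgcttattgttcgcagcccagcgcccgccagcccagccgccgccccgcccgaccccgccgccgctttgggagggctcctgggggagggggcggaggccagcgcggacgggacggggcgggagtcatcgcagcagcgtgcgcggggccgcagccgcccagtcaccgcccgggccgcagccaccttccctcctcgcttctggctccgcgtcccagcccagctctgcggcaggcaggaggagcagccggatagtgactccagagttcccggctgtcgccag
These windows held 1, 2 and 0 matches. Over the promoters of the 25 genes named for their endothelial ratio, 11 of the 23 windows matched to RefSeq (47.8%, 19 genes) held CAGGAA or TTCCTG, and over the pan-endothelial list 8 of 16 did (50.0%, 15 genes), against 29.1% of all 33469 promoters. The GATA motif AGATAA or its reverse TTATCT was in 8.70% and 12.5% of them, against 11.6% of all, and the E-box CAGGTG or CACCTG in 26.1% and 18.8%, against 18.8% of all. None of these 3 motifs contains another. Both gene sets were small and share genes, Nos3, Clec14a and Podxl among them, so their shares are not independent. A match is a description of the letters in the window and was not linked to binding.

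Outside the choosing genes, 25 genes were taken by the smaller of their ratios in the 2 libraries, which was at least 7.03 for each. Other genes had larger ratios than some of them in 1 library, as Itga6 did in BAT. Ptger4, the prostaglandin E receptor EP4, was the first of them by the smaller ratio, at 23.1 CPM in taPVAT (12.0-fold, 5.22 to 31.9) and 27.3 CPM in BAT (11.2-fold, 5.71 to 24.6). Dach1, a transcription factor that promotes coronary artery growth, reached 1143 CPM in taPVAT and 1469 CPM in BAT, with wells of 1141, 1178 and 1102 CPM and of 1284, 1432 and 1839 CPM. Its ratios were 10.8 (9.70 to 12.2) and 12.0 (10.9 to 13.2). All 3 taPVAT wells lay below the BAT wells. Btnl9, a butyrophilin-like membrane protein found on capillary endothelium, was 10.6-fold and 11.0-fold higher. Ccdc85a, a coiled-coil gene, stood at 713 and 1132 CPM and was 9.83-fold and 12.1-fold higher.

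Rasip1, a Ras-interacting protein needed for vessel lumens, was 7.74-fold and 7.14-fold higher. Rasgrp3, a guanine nucleotide exchange factor for Ras and Rap, was 8.73-fold and 10.7-fold higher. Ablim3, an actin-binding LIM protein, was 7.83-fold and 12.1-fold higher, and Kank3, an adaptor between actin and adhesions, 8.86-fold and 10.6-fold. Pdcd1lg2, the immune checkpoint ligand PD-L2, was 9.98-fold (6.86 to 14.9) and 12.2-fold (8.65 to 17.5) higher, Clec14a 12.6-fold and 7.24-fold, Podxl 7.23-fold and 8.59-fold, and Jam2, a junctional adhesion molecule, 7.51-fold and 8.51-fold. Dll1, a Notch ligand, was 8.61-fold and 7.21-fold higher from 28.5 and 22.7 CPM. Depp1, a gene induced by FOXO factors and progesterone, was 9.84-fold and 10.2-fold higher. The remaining genes of the 25 were Slc26a10, Lrrc3b, Lzts1, Tspan13, Ushbp1, Exoc3l1 and Dipk2b, with ratios between 7.35 and 12.6.

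**Figure D3:**
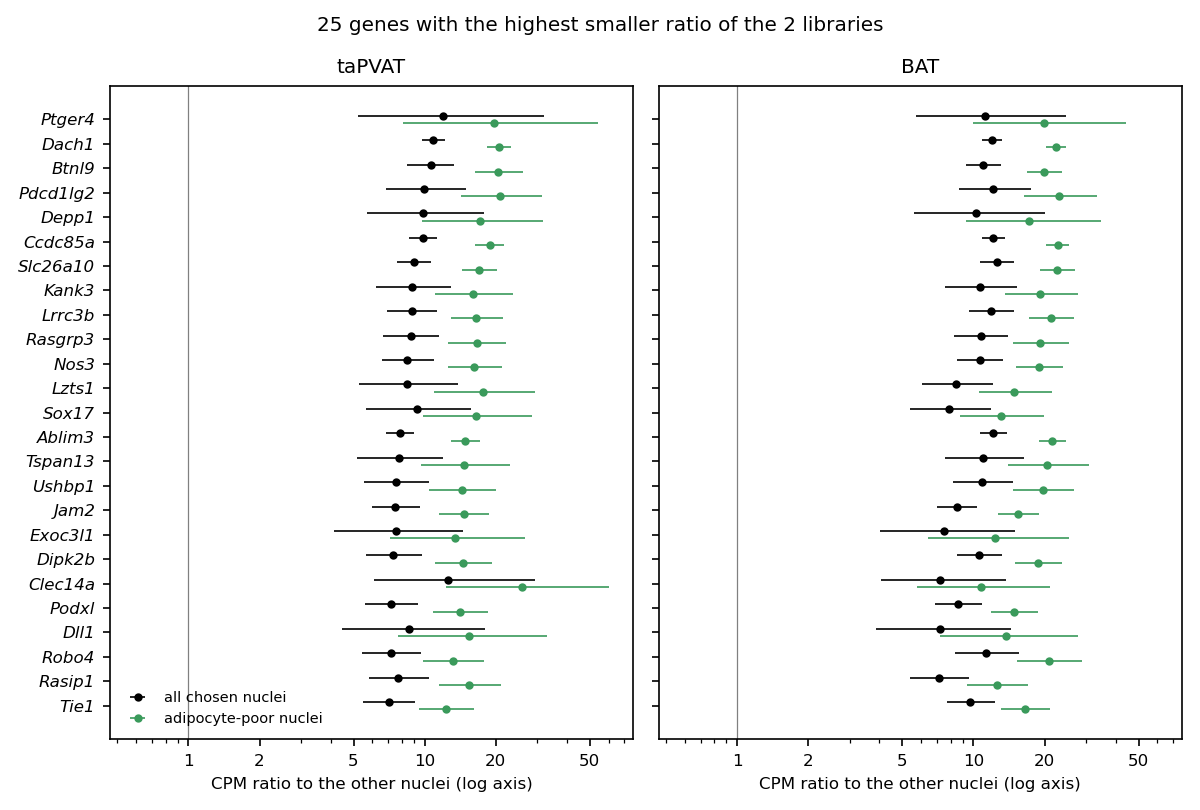
Ratio (log axis) of the level in endothelial nuclei to that in the remaining nuclei for the 25 genes whose smaller ratio of the 2 libraries was largest, in taPVAT and BAT, for all endothelial nuclei and for the adipocyte-poor nuclei, with 95% counting intervals. For Dach1 the ratio moved from 10.8 to 20.6 in taPVAT and from 12.0 to 22.4 in BAT when only adipocyte-poor nuclei were used.

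In the VEGF and angiopoietin axis 7 of 14 measured genes were at least 2-fold higher in the endothelial nuclei of each library, but Flt1 and Ptprb among them had chosen the nuclei. The other 5 were Kdr, Flt4, Tek, Tie1 and Angpt2 in both libraries, and Angpt1 in taPVAT was at least 2-fold lower. Kdr, the main VEGF receptor, stood at 356 and 438 CPM against 58.7 and 34.2 CPM in the remaining nuclei, which was 6.06-fold (5.16 to 7.15) and 12.8-fold (10.7 to 15.4) higher. Tek, the angiopoietin receptor Tie2, was 5.39-fold and 8.27-fold higher, and Flt4, the receptor of VEGF-C, 2.04-fold (1.41 to 2.93) and 7.71-fold (4.99 to 12.3). Angpt2, the angiopoietin that endothelium itself secretes, was 3.02-fold and 2.10-fold higher. The ligand Vegfa stood at 1189 CPM in taPVAT and 1010 CPM in BAT members, 0.731 and 0.645 of the level in the remaining nuclei. In the adipocyte-poor nuclei it was 0.206 of that level in both libraries. Angpt1, the ligand of pericytes and stroma, was at 0.474 (0.357 to 0.622) and 0.651 (0.536 to 0.789). The choice had turned away nuclei with other genes of these cells, so nothing is read from Angpt1. Nrp1, a co-receptor, was between the folds at 1.40 and 1.57.

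Of 13 measured genes of the Notch pathway, 5 were at least 2-fold higher in each library and 2, Rbpj and Heyl, at least 2-fold lower in taPVAT, and the median ratios were 1.33 and 1.25. Notch4, the endothelial receptor, stood at 212 and 222 CPM and was 6.11-fold and 9.25-fold higher. Notch1 was 2.50-fold and 3.45-fold higher, the ligand Dll4 5.43-fold and 8.27-fold, and the ligand Jag2 4.85-fold and 6.38-fold. Rbpj, the DNA-binding partner of every Notch receptor, had ratios of 0.335 (0.270 to 0.412) in taPVAT and 0.785 (0.638 to 0.963) in BAT. Hey2, an arterial target, was at 0.959 and 0.621 in all members and at 0.263 and 0.151 in the adipocyte-poor nuclei, with 36.0 and 29.6 CPM in members and 41.1 and 54.5 CPM in adipocyte nuclei.

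Of 16 measured genes of capillary identity and lipid uptake, 9 were at least 2-fold higher in each library, with medians of 2.74 and 4.03, and 1 was at least 2-fold lower in BAT. Gpihbp1, which anchors lipoprotein lipase to the capillary wall, stood at 54.3 and 60.5 CPM and was 7.57-fold (4.81 to 12.3) and 6.39-fold (4.44 to 9.38) higher. Cd300lg, a lipid-binding receptor of capillaries, was 6.51-fold and 11.1-fold higher. Meox2 and Tcf15, which pair as transcription factors of fatty acid uptake in heart capillaries, were 5.62-fold and 7.77-fold, and 7.38-fold and 5.04-fold, higher. Car4, a carbonic anhydrase of the capillary surface, was 3.17-fold and 6.88-fold higher, and Aqp1, a water channel, 4.18-fold and 7.31-fold. Lpl, the lipase itself, which adipocytes make, was at 0.785 and 0.740 of the remaining nuclei and at 0.307 and 0.310 in the adipocyte-poor nuclei. Pparg, the lipid-sensing receptor shared by endothelium and adipocytes, was at 0.979 and 0.846. Fabp4, another gene that both cells use, stood at 634 and 671 CPM and was 1.23-fold (1.14 to 1.34) and 1.25-fold (1.17 to 1.34) higher.

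The lists of vessel tone, junctions and growth receptors had median ratios of 1.51, 1.63 and 1.34 in taPVAT and 1.43, 1.75 and 1.43 in BAT. Of 19 vasoactive genes, 7 were at least 2-fold higher and 3 lower in taPVAT, and 8 higher and 1 lower in BAT. Over all genes 5.69% were higher and 8.25% lower in taPVAT, and 8.48% and 7.44% in BAT. The 1 lower gene in BAT is near that share. Cav1, the caveolin that binds Nos3, was 3.68-fold and 3.85-fold higher, Pde2a, a cyclic nucleotide phosphodiesterase, 4.69-fold and 6.06-fold, and Ace, the angiotensin-converting enzyme, 3.56-fold and 6.29-fold. Agtr1a, the angiotensin receptor of smooth muscle and stroma, was at 0.310 and 0.441, but the choice had turned away nuclei with other genes of these cells. Of 20 junction and basement membrane genes, 6 in taPVAT and 9 in BAT were at least 2-fold higher. Magi1, a scaffold of tight junctions, was 4.12-fold and 6.10-fold higher, and Itga6, a laminin receptor, 6.44-fold (5.37 to 7.76) and 12.5-fold (10.6 to 14.9). Of 16 receptors of insulin, transforming growth factor and related pathways, 4 and 6 were at least 2-fold higher. Bmp6, a ligand that endothelium releases, was 6.03-fold and 6.20-fold higher, and Eng, its co-receptor endoglin, 5.96-fold and 7.42-fold. Insr, the insulin receptor, was at 0.774 and 0.668.

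The arterial and venous lists were each mixed. Of 11 arterial genes in taPVAT and 13 in BAT, 5 and 7 were at least 2-fold higher (medians 1.83 and 2.14), and of 14 and 12 venous genes, 6 in each library were (medians 1.53 and 1.93). Efnb2, the arterial ephrin ligand, was 3.83-fold and 6.13-fold higher, and its venous receptor Ephb4 3.96-fold and 4.95-fold. Vwf, the von Willebrand factor of clotting, was 3.30-fold (2.69 to 4.05) and 4.93-fold (3.84 to 6.39) higher. Nr2f2, the transcription factor of venous fate, was at 0.970 and 0.729, from 28 UMIs in each library.

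Of the lists of other cells, the stromal, immune and mural lists were lowered by the choice itself, which turned away nuclei with other genes of these cells, and nothing is read from their counts. The adipocyte list had 0 of 20 genes at least 2-fold lower in either library, with median ratios of 0.807 and 0.696. In the adipocyte-poor nuclei 18 and 17 of the 20 were lower, at medians of 0.293 and 0.246, but 8 of the 20 genes had made the split, and 7 of those 8 were among the lower in each library. Immune genes were at least 2-fold lower for 8 of 13 in taPVAT and 3 of 13 in BAT, mural genes for 6 of 11 and 8 of 12, and stromal genes for 8 of 11 and 0 of 10. Their sums in members were 296 and 195 CPM for the immune list, led by Inpp5d and Arhgap15, 847 and 911 CPM for the mural list, led by Mylk in both libraries, and 794 and 712 CPM for the stromal list, led by Col3a1 and Bicc1, with Lum at 0 in BAT.

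When members of each library were clustered on their own, arterial-like, capillary-like and venous-like groups separated, and most nuclei stayed without a name. Groups were named from the arterial, capillary and venous lists, so these genes are a description of the naming. In taPVAT 152 of 649 nuclei (23.4%) formed a capillary-like cluster, in which Btnl9 reached 1084 CPM against 148 CPM in the other members and Car4 246 against 62.4 CPM, and 0.7% of its nuclei were adipocyte-rich. An arterial-like cluster of 61 nuclei (9.40%) held 666 CPM of Nebl, a nebulin-related actin-binding gene, against 92.8 CPM elsewhere, 381 against 90.7 CPM of the Notch ligand Jag1 and 177 against 28.6 CPM of Dll4. A cluster of 53 nuclei (8.17%) was venous-like, with 1114 against 74.3 CPM of Vwf and 649 against 75.7 CPM of Il1r1, the interleukin-1 receptor. It also carried 6 raised arterial markers, and Dkk2, a Wnt antagonist of the arterial list, was its leading gene (360 against 5.88 CPM). The lymphatic list summed to 1070 CPM in this cluster, with 3 raised genes, against at most 439 CPM in any other taPVAT cluster. Pkhd1l1 of that list was among its leading genes. Prox1 was absent by construction, and whether lymphatic nuclei were among these was not tested. Finer clustering of all taPVAT members gave, among others, a venous-like cluster of 37 nuclei with 0 raised arterial markers and an arterial-like cluster of 22 nuclei led by Pthlh and Dkk2, and which nuclei passed between the clusterings was not traced.

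In BAT 2 capillary-like clusters held 195 of 815 nuclei (23.9%), 2 arterial-like clusters 90 (11.0%) and 1 venous-like cluster 19 (2.33%). The smaller arterial-like cluster, of 21 nuclei, held 2032 against 65.5 CPM of Nebl and 968 against 3.74 CPM of Dkk2, and Pthlh, Eln, Vcan and Fn1 were among its leading genes. The larger, of 69 nuclei, held 352 against 62.8 CPM of Unc5b, a netrin receptor, and 238 against 39.5 CPM of Dll4. The venous-like cluster held 1418 against 74.0 CPM of Vwf, 1216 against 85.6 CPM of Il1r1 and 5 of the 7 UMIs of Selp, the leukocyte-rolling receptor P-selectin. Ackr1, the chemokine-scavenging receptor of venules, was among its leading genes, and it had 0 UMIs of Btnl9.

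Unnamed clusters took 59.0% of taPVAT and 62.7% of BAT members. A taPVAT cluster of 68 nuclei and a BAT cluster of 117 nuclei were 97.1% and 99.1% adipocyte-rich and summed to 24611 and 24625 CPM of the adipocyte list. That was the level of adipocyte nuclei themselves, and in the taPVAT cluster the pan-endothelial list summed to 621 CPM, below the 980 CPM of the remaining nuclei and above the 313 CPM of adipocyte nuclei. In the BAT cluster it summed to 914 CPM, against 748 CPM in the remaining nuclei and 226 CPM in adipocyte nuclei. Both values lay far below the 4512 and 5110 CPM of all endothelial nuclei. A BAT cluster of 17 nuclei held 4515 CPM of the mural list with Rgs5, Abcc9, Kcnj8 and Cspg4 raised, all genes of pericytes. The shares of named clusters depended strongly on the coarseness of clustering, and they are not compared between the libraries.

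**Figure D4:**
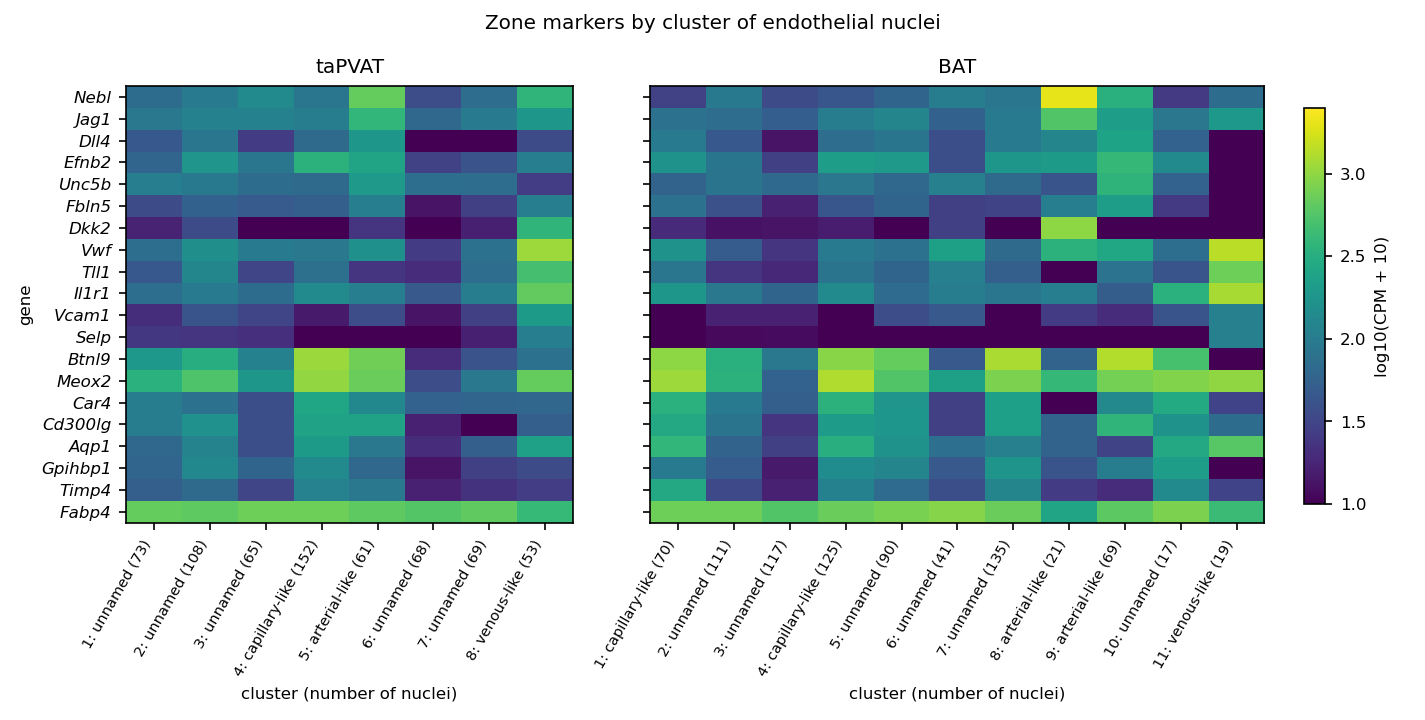
Level of 20 marker genes (colour, log10 of CPM plus 10) in each cluster of endothelial nuclei of taPVAT and BAT, with named clusters marked. Vwf was bright in the venous-like clusters (1114 CPM in taPVAT and 1418 CPM in BAT) and Nebl in the arterial-like clusters (666 CPM in taPVAT and 2032 CPM in the smaller cluster of BAT).

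Comparing the endothelial nuclei of the taPVAT library with those of the BAT library compares 2 libraries and not the depots, because nothing measures how rats or preparations of a depot vary. Of 12144 genes with at least 20 UMIs in both sets together, 3.75% were at least 2-fold higher in taPVAT and 1.7% at least 2-fold higher in BAT, and the median ratio of taPVAT to BAT was 1.03. For the remaining nuclei 7.2% and 1.31% of 16696 genes passed these folds. In adipocyte-poor endothelial nuclei 4.58% and 2.08% of 9001 genes did. The wells of the libraries did not overlap for 14.1% of the 12144 genes.

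None of the 25 measured pan-endothelial genes was 2-fold apart, and their median ratio was 0.863 (0.933 in the adipocyte-poor nuclei). With so few genes 2-fold apart in all, a count of 0 in a list of this size is near the background and is not a result about endothelial genes. The count was likewise 0 for 13 genes of the VEGF and angiopoietin axis (median 0.853), 13 of the Notch pathway (1.14), 20 of junctions and basement membrane (0.923) and 16 growth receptors (1.06). Of 19 vasoactive genes 2 were at least 2-fold higher in taPVAT (median 1.00), as was 1 of 16 capillary and lipid-uptake genes (0.861). Of 12 arterial genes 1 was at least 2-fold lower (1.05). Single endothelial genes were lower in taPVAT by less than 2-fold. Itga6 held 272, 333 and 259 CPM in the taPVAT wells and 458, 459 and 573 CPM in the BAT wells, a ratio of 0.607 (0.541 to 0.679), against 1.18 in the remaining nuclei. Pdgfb, the growth factor by which endothelium recruits pericytes, was at 0.667 (0.549 to 0.808) against 1.08, and Magi1 at 0.715 (0.673 to 0.759) against 1.06. Btnl9 was at 0.631 (0.561 to 0.708), and in the remaining nuclei at 0.657.

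The 14 measured genes of the venous list had a median ratio of 1.40, and 4 were at least 2-fold higher in taPVAT, against 3.75% of all genes. In adipocyte-poor nuclei the median was 1.23 with 3 of 13 genes past the fold, and in the remaining nuclei it was 1.69 with 3 of 13. In all members the immune list had a median of 1.73, with 3 of 11 genes at least 2-fold higher. The stromal list was at 1.35, with 1 of 10, and the mural list at 0.881. In adipocyte-poor members these 3 medians were 1.90, 1.71 and 0.840. The part of such RNA in the venous ratios was not tested. Selp had 20 UMIs in taPVAT and 7 in BAT, a ratio of 4.26 (1.73 to 11.9). Plvap, the diaphragm protein of fenestrated and venous endothelium, had 20 and 9 UMIs (3.32, 1.44 to 8.27), Vcam1, a leukocyte adhesion receptor, 41 and 26 (2.35, 1.41 to 4.01), and Slco2a1, a prostaglandin transporter, 33 and 24 (2.05, 1.18 to 3.63). Vwf was between the folds at 1.49 (1.23 to 1.79), with 121, 181 and 144 CPM in the taPVAT wells and 122, 90.9 and 104 CPM in the BAT wells, which overlapped. Klf2, the transcription factor that flow induces, had 46 and 38 UMIs, a ratio of 1.81 (1.15 to 2.85), and in the remaining nuclei the ratio was 2.75. In the remaining nuclei the other 5 of these genes had ratios from 1.69 to 3.41, so none of the 6 was higher in the taPVAT endothelium alone.

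Of the 15 genes with a symbol furthest towards taPVAT, the largest ratios were of heart and muscle genes. Myh6, the alpha myosin heavy chain of heart muscle, had 123 UMIs in taPVAT and 3 in BAT, a ratio of 61.2 (20.4 to 301). Its wells held 18.6, 20.9 and 197 CPM in taPVAT and 0, 3.07 and 0 CPM in BAT, so that well A6 stood far above the others. Ttn, the giant spring protein of striated muscle, had 329 and 20 UMIs (24.5, 15.6 to 40.7), with 561 CPM in well A6 and 34.0 and 35.3 CPM in wells A4 and A5. Tnnt2, Mybpc3, Ryr2 and Dsp, genes of the heart sarcomere, calcium release and desmosome, had ratios of 9.85, 8.58, 4.13 and 17.9.

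In taPVAT most of the muscle UMIs lay in few nuclei. The muscle list summed to 671 UMIs in 112 taPVAT members, and 2 nuclei of them held 345 and 121, or 69.4%. The list came to 455 CPM in taPVAT, with Myh1 and Myh4 at 0, and 110 CPM in BAT, led by Neb, with Myh2 at 0. Without the top 2 nuclei of each library, taPVAT held 139 CPM and BAT 94.1 CPM. Ttn then had 60 UMIs against 20 (4.47, 2.66 to 7.84) and Myh6 27 against 3 (13.4, 4.13 to 69.1), while Ryr2 was at 1.42 (0.878 to 2.28), Tnnt2 at 2.68 (0.808 to 10.2) and Mybpc3 at 2.61 (0.664 to 12.2). Dsp stayed at 10.4 (2.40 to 94.7). Without well A6 the ratios were 3.84 for Ttn, 14.7 for Myh6, 1.43 for Ryr2, 1.86 for Tnnt2, 2.32 (0.433 to 12.5) for Mybpc3 and 11.6 (2.48 to 109) for Dsp. In the remaining nuclei Myh6 was also higher in taPVAT, by 30.2-fold (14.4 to 76.1).

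The other genes higher in taPVAT were spread over the wells, and several were about as much higher outside the endothelium. Foxp2, a forkhead factor that lymphatic endothelium and neurons use, had 282 and 66 UMIs, with 207, 182 and 193 CPM in the taPVAT wells and 25.4, 41.9 and 12.7 CPM in the BAT wells. The ratio was 6.37 (4.86 to 8.47) in members and 7.65 in the remaining nuclei, and it was 3.66 in adipocyte-poor members. Aspg, an asparaginase, was at 5.94 (4.44 to 8.07) against 4.89, Aox3, an aldehyde oxidase, at 3.23 against 3.43, and Plod2, a collagen lysyl hydroxylase, at 4.58 against 4.19. Kcnip1, a potassium channel subunit, was at 3.16 (2.69 to 3.71) against 2.55, and at 5.91 without BAT well A2, which held 162 CPM where the other BAT wells held 62.8 and 42.4 CPM.

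For the last 4 genes towards taPVAT counts were few, and the difference between the ratios inside and outside the endothelium was not tested. Aebp1, a collagen-binding protein of vessel walls, had 46 and 9 UMIs, with 24.7, 40.2 and 24.6 CPM in the taPVAT wells and 5.34, 4.09 and 2.12 CPM in the BAT wells. Its ratio was 7.63 (3.69 to 17.7) in members, 7.58 in adipocyte-poor members and 2.62 (2.01 to 3.44) in the remaining nuclei. Ncr3lg1, a ligand of natural killer cell receptors, had 28 and 4 UMIs, a ratio of 10.4 (3.65 to 41.0) in members and 3.98 (0.757 to 39.2) in the remaining nuclei. Hoxa9, a posterior homeobox gene, had 23 and 4 UMIs (8.58, 2.93 to 34.1), though in adipocyte-poor members the ratio was 1.60 (0.116 to 22.0) and in the remaining nuclei 1.64. Cybb, a phagocyte oxidase subunit, had 18 and 3 UMIs (8.95, 2.61 to 47.4), and outside the members the ratio was 2.25 (1.55 to 3.29).

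Of the 15 genes with a symbol furthest towards BAT, Kif15, a mitotic kinesin, led by the end of its interval nearest 1. Dmrt2, Jaml and Polq had smaller ratios from fewer counts. Kif15 had 26 UMIs in taPVAT and 506 in BAT, a ratio of 0.0767 (0.0496 to 0.114), and this rested on a single well. Wells A1, A2 and A3 of BAT held 629, 25.5 and 21.2 CPM, and the taPVAT wells 15.5, 19.3 and 17.0 CPM. In well A1 a Kif15 UMI was found in 183 of 281 endothelial nuclei (65.1%) and in 371 of 690 remaining nuclei (53.8%), so the excess was not particular to the endothelium. In wells A2 and A3 the share was 7.33% and 4.27% of endothelial nuclei. Without well A1 the ratio was 0.731 (0.423 to 1.25).

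Samd5, a sterile alpha motif gene, held 167, 182 and 152 CPM in the taPVAT wells and 330, 338 and 342 CPM in the BAT wells, a ratio of 0.499 (0.430 to 0.577). In the remaining nuclei it was 1.08 (0.861 to 1.34). Tspan7, a tetraspanin, was at 0.439 (0.322 to 0.591) in members and 1.03 outside them, Adamts1, a protease that cleaves versican, at 0.412 (0.278 to 0.597) and 0.847, and Rpl35al5, a ribosomal protein-like gene whose reads may be shared with near-identical copies, at 0.406 and 0.970. For these 4 genes the ratio in the adipocyte-poor nuclei lay between 0.410 and 0.485. Efhc2, a gene of cilia, had 4 and 39 UMIs, a ratio of 0.153 (0.0397 to 0.424) in members and 1.64 outside. Fgf10, a growth factor that stroma usually makes, had 13 and 61 UMIs, a ratio of 0.318 (0.160 to 0.585) in members and 1.25 outside.

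For the remaining genes towards BAT the ratio outside the endothelium was also below 1 or counts were few. Csrp1, a LIM protein of the actin cytoskeleton, held 179, 169 and 206 CPM in the taPVAT wells and 407, 379 and 475 CPM in the BAT wells, a ratio of 0.451 (0.392 to 0.517) against 0.540 outside. Noct, a circadian deadenylase-like enzyme, was at 0.402 against 0.471, Zfhx4, a zinc finger homeobox factor, at 0.317 against 0.550, Slc22a4, an ergothioneine transporter, at 0.284 against 0.521, and Egr3, an early growth response factor that VEGF induces, at 0.310 against 0.341, and at 0.151 without taPVAT well A6. Dmrt2, a transcription factor of somites, had 0 UMIs in taPVAT and 23 in BAT. Against a floor of 3 UMIs (2.04 CPM) set for taPVAT it was 5.14-fold lower there. The exact interval of the ratio reached up to 0.260, which allows a smaller difference. Without well A2, BAT held 7 UMIs of Dmrt2, and the interval reached up to 0.574, within 2-fold. Jaml, a junctional adhesion molecule of leukocytes, and Polq, a DNA polymerase of break repair, each had 1 UMI in taPVAT and 20 in BAT, a ratio of 0.0746 (0.0018 to 0.466).

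**Figure D5:**
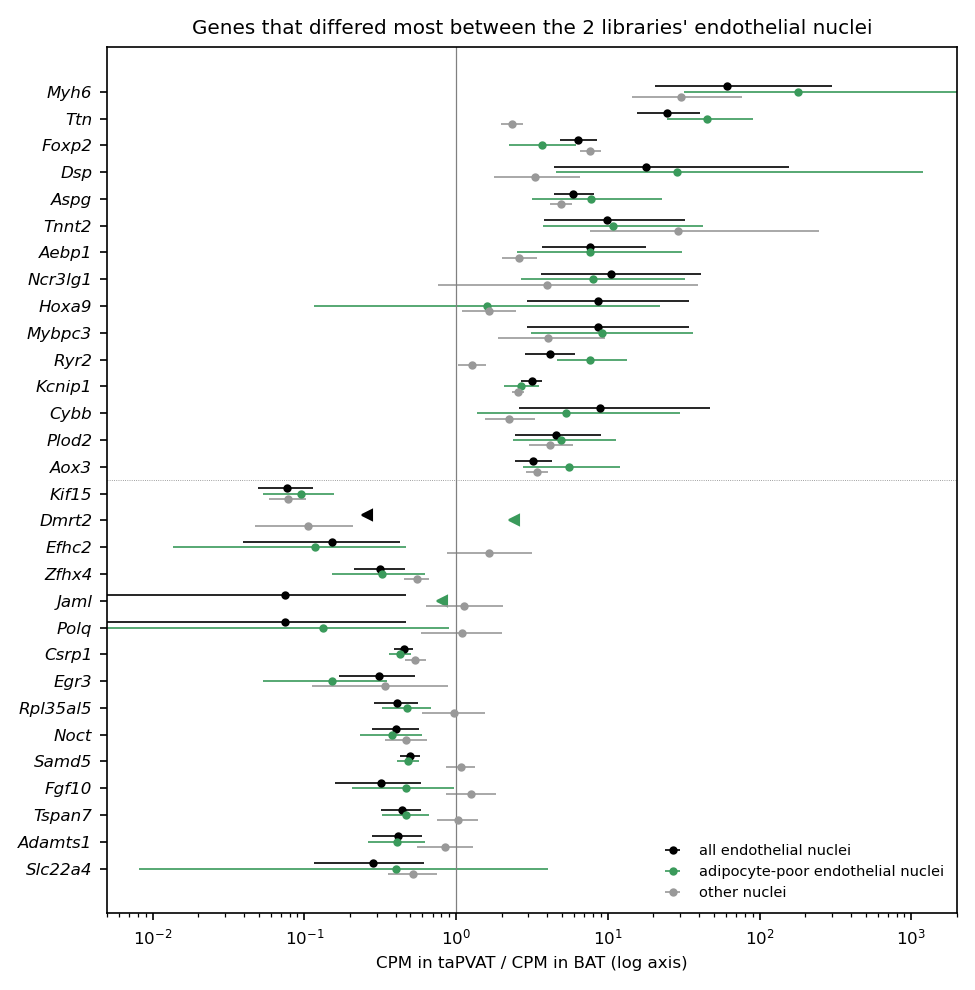
Ratio of taPVAT to BAT (log axis) for the 15 genes with a symbol furthest in each direction. Values are for all endothelial nuclei, adipocyte-poor endothelial nuclei and the remaining nuclei, with 95% counting intervals, some of which run past the axis. Left-pointing triangles give the upper bound for genes with 0 UMIs in taPVAT. Samd5, Tspan7 and Adamts1 lay below 0.5 in endothelial nuclei and between 0.847 and 1.08 in the remaining nuclei.

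Of 13 measured position-related transcription factors, against shares of 3.75% and 1.7% of all genes, 2 were at least 2-fold higher in taPVAT and 1 lower, with a median of 1.33 (1.43 in the remaining nuclei). Gata6, a factor of the aortic and heart region, had 25 and 12 UMIs (3.11, 1.51 to 6.79), and Tbx5, a factor of forelimb and heart, 16 and 58 UMIs (0.412, 0.221 to 0.726). Of its UMIs in taPVAT 11 lay in 1 nucleus, and in BAT 35 lay in a cluster of 16 nuclei, found by finer clustering, that held 4893 CPM of the mural list. The part of mural RNA in this ratio was not tested. Hoxa3 was between the folds at 1.83 (1.42 to 2.36), with 102, 106 and 79.5 CPM in the taPVAT wells and 60.1, 50.1 and 44.5 CPM in the BAT wells, which did not overlap. Hoxb3 and Hoxb4, by contrast, were at 0.889 and 0.965 between the libraries. In BAT they were 5.41-fold and 5.54-fold higher in endothelial than in remaining nuclei, and in taPVAT 1.82-fold and 1.84-fold.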

How the data were processed

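Per the labels and the study's methods, the authors checked reads with FastQC, aligned them to GRCr8 with the Parse split-pipe pipeline and deposited a table of UMI counts per nucleus and gene for each library. The deposited counts are not normalized. The authors called doublets with scDblFinder and clustered with Scanpy; the deposited tables carry no doublet calls and no caller was run here, so doublets may remain.

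Endothelial nuclei were chosen by the stated criteria. Members and gene lists were chosen with earlier results of these data known. UMIs were summed over nuclei per library with Python 3.11.15, pandas 2.3.3 and scipy 1.17.1, and divided by all UMIs of those nuclei, including the roughly 10% on 1 gene without a symbol (103673 and 101873 CPM). Genes with at least 20 UMIs in the 2 sets compared were used. Sums carry exact Poisson, shares exact Clopper-Pearson and ratios exact conditional binomial 95% intervals, for counting error only. With 1 library per depot there was no test. The script that computes ratios and intervals was checked on simulated counts.

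Remaining nuclei are all nuclei of the library outside the members. Adipocyte, stromal, immune and mural nuclei were chosen likewise by their own genes. Genes were named as the 25 with the largest smaller ratio of the libraries (at least 20 UMIs in members of each), the 15 in each direction between libraries whose interval lay furthest from 1, the 5 most abundant, and members of fixed lists. Genes without a symbol were left out of these choices. Between libraries this left out ENSRNOG00000072977 (4.71, 2.77 to 8.36, with 30 of its 60 taPVAT UMIs in 1 nucleus) and ENSRNOG00000072842 (2.97, 2.52 to 3.51). Towards BAT it left out ENSRNOG00000070751 (0.0678, 0.0016 to 0.420) and ENSRNOG00000082357 (0.0710, 0.0017 to 0.442). Clusters came from scanpy 1.11.5 (2000 variable genes, 20 components, 15 neighbours, Leiden resolution 1) and were named from fixed markers.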

Additional observations from a re-analysis of the deposited data

Results flagged for a closer look

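For 2 of the named genes the endothelial nuclei stood above the remaining nuclei in 1 brown library and below them in the other, with intervals that lie on opposite sides of 1. The difference between the libraries was not tested, since each depot had 1 library. Fgf10 was at 0.50 (0.253 to 0.917) in taPVAT and at 1.97 (1.35 to 2.87) in BAT, from 13 and 61 UMIs in endothelial nuclei. Ttn was at 1.78 (1.54 to 2.05) in taPVAT and at 0.169 (0.101 to 0.267) in BAT, and 194 of its 329 UMIs in taPVAT members lay in 1 nucleus. In wells A4 and A5 of taPVAT it was lower in endothelial nuclei (34.0 and 35.3 CPM) than in the remaining nuclei (108 and 55.3 CPM). Without the 2 taPVAT members with the most muscle UMIs it stood at 40.9 CPM, against 126 CPM in the remaining nuclei, none of which were left out, so that Ttn then lay below the remaining nuclei in both libraries.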

How the results depend on the processing

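Depth limits these values: with 1 library per depot, intervals cover counting error only. No paired analysis was possible because no group has a second library. For the 25 endothelial genes, chosen for ratios far from 1, no ratio changed sides of 1 under 11 alternatives, but 35 values in taPVAT and 48 in BAT left their counting interval, against 240 and 227 within it. For the 30 library genes, also chosen for their distance from 1, none changed sides under 18 alternatives, 51 left it and 484 did not, and Cybb, Dsp and Myh6 had no ratio in 5 cases in all, with 0 UMIs in BAT. The share of endothelial nuclei was 28.5% in taPVAT and 34.3% in BAT with at least 2 UMIs of the endothelial genes, 18.1% and 25.6% with at least 5, 14.3% and 20.7% with no UMI of the excluding genes, 27.0% and 32.0% with more endothelial than excluding UMIs, 15.3% and 20.7% thinned, and 16.1% and 21.6% for adipocyte-poor nuclei (added after seeing the data). In taPVAT genes lower against the remaining nuclei numbered 1211, and 2036 with no excluding UMI, 2179 by mean CPM per nucleus, 2288 for adipocyte-poor nuclei, 472 with at least 50 UMIs, 9147 with at least 1 and 789 in sublibrary 2; those higher numbered 835, 1788 for adipocyte-poor nuclei and 4258 with at least 1 UMI. In BAT the lower numbered 1104, and by the same alternatives 1864, 2746, 2527, 403, 8331 and 723 (sublibrary 1); the higher 1257, 2060 and 3892. Between libraries, genes higher in taPVAT numbered 455, and 296 with no excluding UMI, 922 by mean CPM, 120 with at least 50 UMIs and 5876 with at least 1. Those lower numbered 206, 427 by mean CPM, 34, 5337 and 357 without well A5 (added after seeing the data). The arterial list's median ratio of taPVAT to BAT, 1.05, was 0.995 under the study's nucleus limits, 0.887 in sublibrary 2 and 0.914 without well A1 (added). Its cause was not tested. Clustering at resolution 0.5 left 0% arterial-like and 0% venous-like nuclei in taPVAT, 49.0% capillary-like there, and in BAT 0% arterial-like, 28.3% venous-like and 55.6% capillary-like; resolution 1.5 gave 5.70% venous-like and 29.9% capillary-like in taPVAT. Clustered alone (added), adipocyte-poor nuclei were 18.1% capillary-like in taPVAT and 20.3% arterial-like and 0% capillary-like in BAT. With at least 5 endothelial UMIs the adipocyte list summed to 13070 CPM in taPVAT and 13120 in BAT, and the stromal list to 858 and 769 CPM. In adipocyte-poor nuclei (added) the adipocyte list held 5384 and 5468 CPM, the stromal 1061 and 920, the immune 445 and 243, and the mural list in BAT 867 CPM. Leaving out single wells (added) moved the ratio by over 1.5 times for 13 of the 30 library genes (Myh6, Ttn, Dsp, Tnnt2, Ncr3lg1, Mybpc3, Ryr2, Kcnip1, Cybb, Kif15, Jaml, Polq and Egr3), and Ryr2, Tnnt2, Kif15 and, at up to 0.525, Samd5 then came within 2-fold. The ratio of Dmrt2 stayed at 0, but its upper bound rose from 0.260 to 0.574 without BAT well A2.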

Other observations

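The endothelial nuclei of the white libraries were shallow (medians of 597 and 569 UMIs) and few, and their values are given beside the brown ones without a test. The pan-endothelial list summed to 5427 CPM in the library labelled mesPVAT and 4445 CPM in the library labelled RP fat, against 4512 CPM in taPVAT and 5110 CPM in BAT. The list of capillary and lipid-uptake genes summed to 2237 and 1218 CPM, against 4664 and 5143 CPM in the brown libraries, and it includes Lpl and Pparg, which adipocytes also make. In the remaining nuclei this list summed to 1252 and 823 CPM in the white and 4182 and 4689 CPM in the brown libraries. The gap was therefore not particular to the endothelium. Btnl9 stood at 237 (175 to 314) and 128 (47.1 to 279) CPM in the white libraries and at 280 and 444 CPM in the brown, and Vwf at 237 (175 to 314) and 299 (164 to 502) CPM against 155 and 104 CPM. These values moved when only adipocyte-poor nuclei were used, mostly in the brown libraries. The capillary and lipid-uptake list then summed to 2255 and 1233 CPM in the white and 3932 and 4752.5 CPM in the brown libraries. The pan-endothelial list then summed to 5829 and 4433 CPM in the white and 8328 and 8946 CPM in the brown libraries, Btnl9 stood at 235 and 130 CPM against 542 and 805 CPM, and Vwf at 257 and 303 CPM against 299 and 175 CPM, so that the order of the white libraries and taPVAT for Vwf was not kept. Ucp1 had 10 UMIs (48.4 CPM) in the endothelial nuclei of mesPVAT and 0 in those of RP fat, against 1547 and 1559 CPM in the brown libraries.

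Early-response genes, which tissue handling can induce, had a median ratio of endothelial to remaining nuclei of 0.802 in taPVAT and 1.13 in BAT. Egr1 was 1.54-fold (1.16 to 2.04) and 2.71-fold (2.15 to 3.42) higher in the endothelial nuclei, and Nr4a1 was at 0.727 and 0.700. In endothelial nuclei, besides Kif15, Scn7a in well A1 and Eln in well A3 of BAT were the genes with at least 100 UMIs that stood at least 5-fold above the other wells of the same library, out of 4239 genes. In taPVAT these were Myh6, Ryr2 and Ttn in well A6, out of 3160.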
